A study of Mus musculus with 12 samples.

Results

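Open chromatin was examined around 9 genes of the biliary and ductular programme, Sox9, Krt7, Krt19, Epcam, Spp1, Cldn4, Prom1, Ehf and Elf3, in mouse hepatocyte preparations. The genes form a list of names, and their regions were taken by position alone: every ATAC-seq peak that overlapped a gene's span or lay within 30 kb of it, joined over the libraries. This gave 140 of 292665 regions in all, of which 74 had a peak in 3 or more libraries and were tested, out of 138538 tested regions. The other 66 regions, 55 of them present in 1 library, were too rare to test.

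The series holds 12 ATAC-seq libraries, 1 per mouse, in 4 groups of 3 mice, and asks how chromatin accessibility differs between the genotypes in cholestatic liver. All mice carried loxP-flanked (floxed) Fbxl5 alleles (FBXL5F/F); the control mice had no Cre, and the Fbxl5-deleted mice also carried Alb-Cre. For 2 weeks, mice of both genotypes ate either standard chow or chow containing 0.1% DDC, a collidine derivative that raises porphyrins and causes cholestasis. The groups are called control standard, deleted standard, control DDC and deleted DDC below. Hepatocytes were isolated by collagenase perfusion, so the preparation can hold other liver cells, and a Cre under the albumin promoter acts in hepatocytes and in cells derived from albumin-expressing progenitors. The sources used here do not give the age or sex of the mice.

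Cholangiocytes, the epithelial cells of the bile ducts, and hepatocytes share an embryonic progenitor. In chronic bile duct injury, ductular cells expand, and some hepatocytes switch on part of the ductal programme while keeping their own, a process called biliary reprogramming that Notch, YAP and TGF-beta signalling can drive. SOX9 appears early in this switch, whereas keratin 19 and EPCAM mark mature duct cells. FBXL5 is the subunit of a ubiquitin ligase that recognises iron regulatory protein IRP2, and its loss raises cellular iron.

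The deposited lists give each peak's fold enrichment over the local background of the same library. Because lists held 137034 to 262080 peaks, the strongest 137034 were kept in each, and each kept peak was given its percentile among them: 0 for the weakest, 100 for the strongest. For the tests the rank was mapped onto a common log2 fold enrichment scale, on which the 10th percentile is 1.45, the 50th is 2.18, the 90th is 3.69 and the 99th is 4.40. A region with no kept peak in a library took the lowest value of the scale, 1.27. Differences are in these log2 units, ± the standard error from limma, and a region was called when its adjusted p, over all tested regions, was under 0.05. Libraries 1 and 3 of the deleted standard group were unlike the rest: they held 262080 and 260622 peaks, where no other held more than 202912, and had 46949 and 56371 strong peaks (−log10 q of at least 5) against 65943 to 86745. In such bulk libraries, more cells of a type and more open chromatin per cell cannot be told apart.

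Kept peaks covered more of the regions around the biliary genes on the DDC diet than on the standard diet. Kept peaks fell in 57, 56 and 53 of the 140 regions in the control standard libraries and in 66, 62 and 61 in the deleted standard libraries. On DDC they fell in 74, 70 and 70 regions in controls and in 72, 72 and 72 in Fbxl5-deleted mice. Every DDC library thus lay above every standard-diet library. Over the whole genome the same libraries had kept peaks in 115337 to 118633 regions on the standard diet and in 118237 to 121594 on DDC. Of the 74 tested member regions, 67.6% to 81.1% were kept per standard-diet library and 83.8% to 91.9% per DDC library. Of all tested regions, 62.5% to 75.1% and 76.1% to 79.8% were kept. The diets thus did not overlap among all tested regions either. These counts are a description without a test. Strong peaks also differed by diet, from 46949 to 70517 on the standard diet and from 70044 to 86745 on DDC, and their part in the count was not tested.

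**Figure D1:**
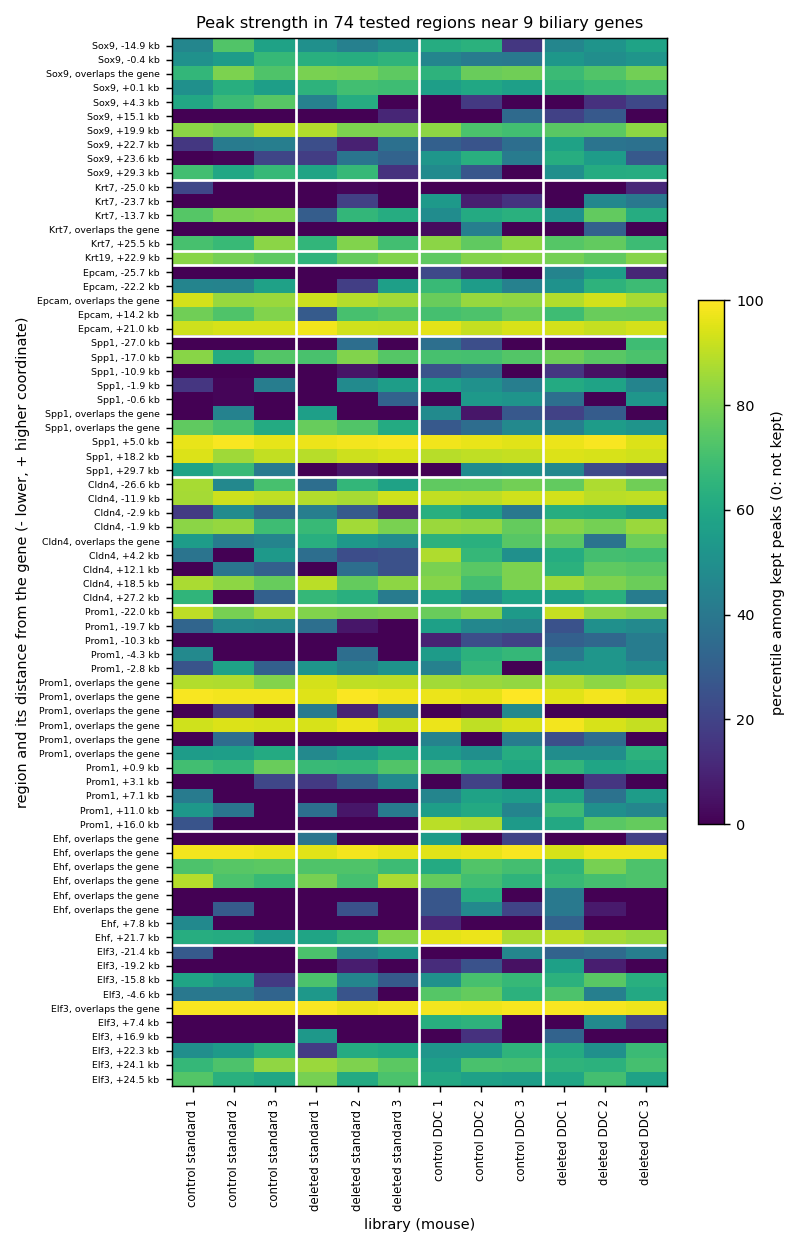
Percentile of the peak among the kept peaks of its library (colour, 0 where no peak was kept) for the 74 tested regions (rows, ordered by gene and by distance in kb) in the 12 libraries (columns, 4 groups of 3 mice separated by white lines). Regions at Elf3, Prom1, Ehf and Spp1 sit near the top of the scale in all 12 libraries, while the region 21.7 kb from Ehf and that 16.0 kb from Prom1 are brighter in the DDC columns.

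Against the standard diet, 5 regions of the biliary genes were higher and 2 were lower on DDC in the floxed controls. The 5 lay near Ehf, Cldn4, Prom1 (2 regions) and Elf3, and the 2 lay near Sox9 and in Spp1. They are 6.76% and 2.7% of the 74 tested member regions, where 4.66% of all tested regions were called higher and 2.36% lower, so both shares lie near the background of the genome. In the Fbxl5-deleted mice 3 regions rose, 2 near Prom1 and 1 near Cldn4, or 4.05% of the members against a background of 2.43%. No member region fell in the deleted mice (limma, 0 called), where the background of lower calls was 0.743%. Called higher in both genotypes were 2 regions, 1 near Cldn4 and 1 near Prom1 (2.7% against 1.59% of all tested regions).

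At an unadjusted p under 0.05, limma gave 18 member regions in controls (24.3%, against 21.2% of all regions) and 15 in deleted mice (20.3%, against 17.4%). The median diet difference over the 74 regions was 0.08 in controls, with 45 regions above 0 and 29 below, where the median of all tested regions was −0.01. The deleted mice had a median of 0.15, with 50 above 0 and 24 below, where the median of all was 0.01. By gene, the median difference in controls ran from −0.15 at Sox9 to 0.44 at Cldn4, where 8 of 9 regions lay above 0. In deleted mice the gene medians ran from 0.05 at Sox9 to 0.48 at Epcam.

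**Figure D2:**
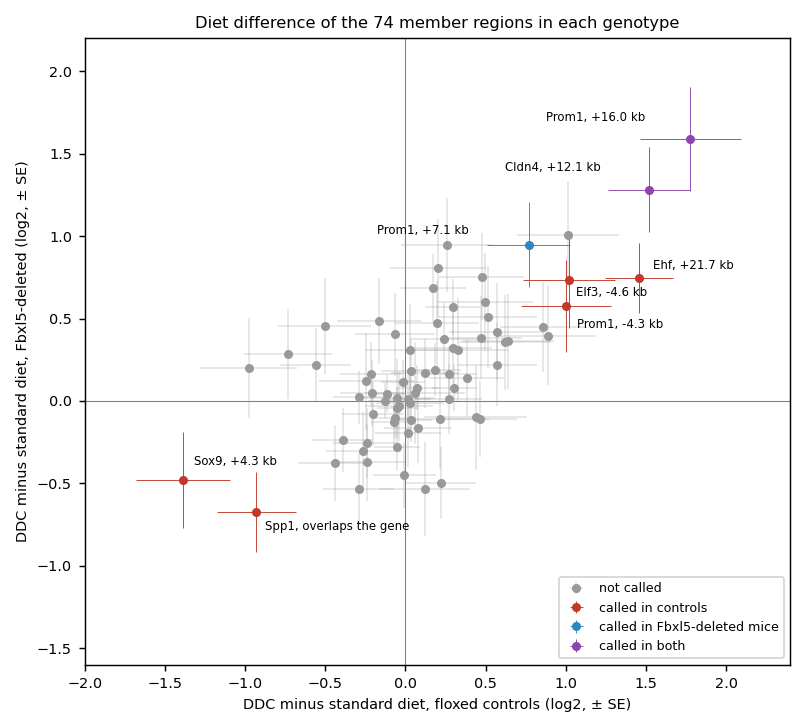
Diet difference (DDC minus standard, log2 units, bars ± SE) of the 74 member regions in floxed controls (x axis) and in Fbxl5-deleted mice (y axis). The regions called in both genotypes, near Prom1 and Cldn4, lie at the upper right, and those called lower in controls, near Sox9 and in Spp1, at the lower left.

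The promoters of the 9 genes were not alike in whether a peak covered them. The RefSeq table for GRCm38.p6, the assembly of mm10, holds promoter sequences of 6 of the genes with strand. The 250 bases before the listed start are shown for 4 of them, chosen because Elf3 was covered by a peak in all libraries, Prom1 and Spp1 in some, and Cldn4 almost never although a region upstream of it changed. Capitals mark matches, on either strand, to short binding motifs: TGANTCA (AP-1), GGAATG (TEAD), ACAANG (SOX), GGAAGT (ETS), GTTAAT (HNF1), TGTTTAC (FOXA) and TGGGAA (RBPJ).
Elf3, chr1:135258473-135258722, minus strand: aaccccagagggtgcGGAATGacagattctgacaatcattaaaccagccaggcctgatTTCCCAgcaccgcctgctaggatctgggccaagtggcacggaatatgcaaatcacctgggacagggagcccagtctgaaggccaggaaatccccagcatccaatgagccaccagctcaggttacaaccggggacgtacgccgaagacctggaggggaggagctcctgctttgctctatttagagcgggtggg
Prom1, chr5:44101737-44101986, minus strand: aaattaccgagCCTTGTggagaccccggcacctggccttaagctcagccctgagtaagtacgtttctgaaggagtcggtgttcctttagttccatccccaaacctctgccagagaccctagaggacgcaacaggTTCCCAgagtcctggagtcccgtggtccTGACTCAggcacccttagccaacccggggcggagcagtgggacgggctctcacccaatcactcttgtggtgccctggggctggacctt
Spp1, chr5:104434861-104435110, plus strand: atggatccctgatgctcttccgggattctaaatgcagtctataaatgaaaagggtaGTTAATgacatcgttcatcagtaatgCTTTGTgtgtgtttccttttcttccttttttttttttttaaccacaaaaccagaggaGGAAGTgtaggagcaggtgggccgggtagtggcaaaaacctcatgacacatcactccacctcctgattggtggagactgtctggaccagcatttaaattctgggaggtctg
Cldn4, chr5:134946935-134947184, minus strand: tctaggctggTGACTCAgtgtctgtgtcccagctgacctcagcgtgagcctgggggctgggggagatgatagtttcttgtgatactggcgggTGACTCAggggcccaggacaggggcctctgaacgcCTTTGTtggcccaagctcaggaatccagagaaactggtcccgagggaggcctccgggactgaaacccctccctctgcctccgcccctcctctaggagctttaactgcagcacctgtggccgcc

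In the complete deposited lists, a peak lay over the Elf3 window in 12 of 12 libraries and over the Cldn4 window in 1. The Prom1 window was covered in 0 of 3 control standard, 2 of 3 deleted standard and 6 of 6 DDC libraries. The Spp1 window was covered in 0 of 6 standard-diet libraries and in 4 of 6 DDC libraries, 2 of each genotype. Control standard lists held 137034 to 151836 peaks and DDC lists 168993 to 202912. The 3 deleted standard lists held 262080, 151137 and 260622 peaks. Deleted standard libraries 1 and 2 had a peak over the Prom1 window, and library 3 had none. The part of list length in these counts was not tested. The Krt7 window was covered in 3 libraries and the Epcam window in none of the 12.

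The motif matches differed between the windows shown. Cldn4 holds 2 AP-1 matches, 240 and 158 bases before the start, and a SOX match at 123, while the Prom1 window holds AP-1 at 88, RBPJ at 116 and SOX at 239. Elf3 holds TEAD at 235 and RBPJ at 192, and Spp1 holds HNF1 at 194, SOX at 168 and ETS at 111. Of 32851 RefSeq promoter windows of the same length, 6.7% hold the AP-1 motif, 12.6% TEAD, 36.3% SOX, 19.7% ETS, 6.4% HNF1, 3.2% FOXA and 21.6% RBPJ. A match describes the letters and does not show that a factor binds there.

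Among the transcription factor genes, Sox9 had a kept peak at its lower-coordinate end in every library. SOX9 is an HMG-box factor found in bile duct cells. Sox9 spans chromosome 11, 112782210 to 112787757, and 10 of its 13 regions were tested. The region across that end (112781947 to 112783112) stood at percentiles 66.1, 80.3 and 72.5 in control standard and 79.8, 79.2 and 75.4 in deleted standard libraries. On DDC it stood at 64.7, 77.0 and 78.3 in controls and at 68.1, 72.7 and 78.8 in deleted mice. These groups overlapped, and the diet difference was 0.02 ± 0.20 in controls and −0.20 ± 0.20 in deleted mice (limma, adjusted p = 0.983 and 0.662). The flanking region before the gene (112780913 to 112781836) differed by −0.44 ± 0.23 and −0.38 ± 0.23, and that after it (112787821 to 112788821) by 0.03 ± 0.21 and −0.01 ± 0.21, none of them called. The strongest Sox9 region, 19915 bp beyond the higher-coordinate end, ranged from the 69.9 to the 89.6 percentile over the 12 libraries.

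A weaker Sox9 region was lower on DDC in controls. It lay 4298 bp beyond the higher-coordinate end (chromosome 11, 112792055 to 112792595) and stood at percentiles 60.0, 68.2 and 74.0 in the control standard libraries. In control DDC library 2 it stood at 16.8, and in libraries 1 and 3 the complete lists held no peak there. Deleted mice had it at 44.1 and 62.0 on the standard diet, with no kept peak in library 3, and at 14.4 and 21.8 on DDC, with none kept in library 1. The control groups did not overlap, whereas the deleted groups did. The diet difference was −1.39 ± 0.29 in controls (limma, adjusted p = 0.00596, called), and in deleted mice it was −0.48 ± 0.29 (adjusted p = 0.419). In controls its size rests in part on the lowest value of the scale, which DDC libraries 1 and 3 took. With the strongest 70000 peaks per library, which raises the lowest value to 2.15, the control difference was −0.59 (limma, adjusted p = 0.0199).

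Ehf and Elf3 encode ETS-family factors of epithelia. Ehf (chromosome 2, 103263431 to 103303275) had 8 of 23 regions tested. A region inside the gene (103285597 to 103286083) was among the strongest peaks of every library, from percentile 93.8 to 99.2, with diet differences of −0.05 ± 0.12 and −0.04 ± 0.12. By contrast, 3 regions within 1 kb of the gene's higher-coordinate end were each kept in at most 7 of 12 libraries. The widest (103303222 to 103304011) was kept in 2 of 6 standard and 5 of 6 DDC libraries, at percentiles of at most 46.9. Another (103302184 to 103302474) was kept in no standard and in 3 DDC libraries, at 27.0, 62.5 and 40.6. Neither was called, and the last (103302633 to 103302986), kept in 2 DDC libraries, was not tested.

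The member region with the smallest p lay 21660 bp beyond that end of Ehf (chromosome 2, 103324935 to 103326057). Control standard libraries placed it at percentiles 62.2, 61.6 and 54.3, with deposited fold enrichments of 5.63, 5.80 and 4.79. Control DDC libraries placed it at 95.9, 96.9 and 87.4, with fold enrichments of 17.0, 20.5 and 12.4. Deleted standard libraries placed it at 58.4, 66.3 and 80.9 and deleted DDC libraries at 90.0, 86.5 and 84.6. The region thus stood near the middle of the control standard lists and near the top of the control DDC lists. The diets did not overlap in deleted mice either, although deleted standard library 3 came close to the DDC libraries. The difference was 1.46 ± 0.21 in controls (limma, adjusted p = 0.000263) and 0.75 ± 0.21 in deleted mice (adjusted p = 0.058, not called). Without deleted standard library 3 the difference in deleted mice was 0.98 (limma, adjusted p = 0.0175). This was 1 of 4 alternatives that gave a call, while 18 of 22 left the difference in deleted mice uncalled. Over the 22 alternatives its values ran from 0.53 to 2.28. Where a peak had to cover 50% of the joined region, the values in controls and deleted mice were 2.65 and 2.28, both called (limma, adjusted p = 0.000586 and 0.00169). Under that rule the standard-diet libraries took the lowest value of the scale, although each held a kept peak there. These larger sizes therefore rest on the rule and are no support for the rise. The diet effects of the genotypes differed by −0.71 ± 0.30, which was not called (adjusted p = 0.847).

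Across the 12 libraries, the 5 tested regions outside the member windows whose values were most like those of this Ehf region had Pearson r of 0.966 to 0.979. They lay 6514 bp from Fam110a, 182304 bp from Pgrmc2, 25256 bp from Ociad2, inside Msra and 102744 bp from Tfap2c. They were picked as the closest of all tested regions, and the 12 libraries share the diet groups, so these values are a description.

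Elf3 was the gene whose printed window lay under a peak in every library. Its start (Elf3 spans chromosome 1, 135253574 to 135258472, on the minus strand) lay under a peak (135258164 to 135259383) that covers the whole window printed above. This peak stood between percentiles 96.9 and 99.5 in all 12 libraries, and the diet differences were −0.13 ± 0.10 and 0.00 ± 0.10 (limma, adjusted p = 0.528 and 1.0). A region 4616 bp downstream of the gene (135248368 to 135248958) was higher on DDC in controls. It stood at 39.9, 40.0 and 32.4 in control standard and at 73.6, 76.2 and 64.3 in control DDC libraries. Deleted mice had it at 53.3 and 26.0 on the standard diet, with no peak listed in library 3, and at 72.0, 43.3 and 60.5 on DDC. The control groups did not overlap, with a difference of 1.02 ± 0.29 (limma, adjusted p = 0.035), and the difference in deleted mice was 0.73 ± 0.29 (adjusted p = 0.184). The control call was lost in 8 of 22 alternatives. Among them were the omission of any 1 of control standard libraries 1, 2 and 3 or of control DDC libraries 1 and 2 (values of 0.93 to 1.04, limma adjusted p = 0.0769 to 0.139). It was also lost under the 50% overlap (0.59, limma adjusted p = 0.517).

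The duct keratin genes, whose products form the cytoskeleton of cholangiocytes, were those of the 9 that lacked a kept peak within 1 kb of the gene in some or all libraries. Krt19 (chromosome 11, 100140810 to 100145926) had no kept peak within 1 kb of its span in any library. Weak peaks were listed there in 3 of 12 complete lists, with a highest fold enrichment of 2.59. Its only tested region lay 22871 bp away (100168797 to 100169764) at percentiles 65.2 to 82.3, with diet differences of 0.03 ± 0.19 and 0.18 ± 0.19 (limma, adjusted p = 0.948 and 0.651). Krt7 (chromosome 15, 101412403 to 101427806) had a kept peak within 1 kb of its span in 7 of 12 libraries, with a highest fold enrichment of 4.81.

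At the Krt7 start, a region (101412215 to 101412481) was kept in deleted standard libraries 2 and 3 alone, at percentiles 19.1 and 49.3, and was not tested. Upstream of Krt7 by 13687 bp, a region (101397675 to 101398716) stood at 73.6, 79.7 and 81.1 in control standard and at 48.7, 61.2 and 63.6 in control DDC libraries. In deleted mice it stood at 29.6, 66.4 and 61.9 on the standard diet and at 51.1, 76.0 and 62.0 on DDC. The control groups did not overlap, and the difference of −0.73 ± 0.27 was not called (limma, adjusted p = 0.116). The deleted mice gave 0.28 ± 0.27 (adjusted p = 0.627). The strongest Krt7 region, 25463 bp downstream and within Krt88, ranged from percentile 65.7 to 82.9.

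Of the surface and junction genes, Epcam had a kept peak near its start in all libraries without a called diet difference. EPCAM is an adhesion glycoprotein of epithelial cells. Epcam spans chromosome 17, 87635979 to 87651127, on the plus strand, and 5 of its 11 regions were tested. The region inside the gene (87636333 to 87637294), which begins after the start, stood at percentiles 93.7, 84.8 and 85.1 in control standard and 92.3, 89.0 and 86.0 in deleted standard libraries. On DDC it stood at 77.2, 84.6 and 83.3 in controls and at 88.3, 93.2 and 86.9 in deleted mice. The diet differences were −0.29 ± 0.16 and 0.02 ± 0.16 (limma, adjusted p = 0.321 and 0.97).

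A region 25742 bp upstream of Epcam (87609735 to 87610237) had a kept peak in no standard-diet library. It was kept at percentiles 22.0 and 7.7 in control DDC libraries 1 and 2, and at 45.3, 55.5 and 10.6 in the deleted DDC libraries. The complete list of deleted standard library 1 held a weak peak there, with a fold enrichment of 1.83. Listed in 3 of 3 against 0 of 3 kept lists, the fitted difference in deleted mice was 0.69 ± 0.20, which rests on the lowest value of the scale and was not called (limma, adjusted p = 0.074).

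Cldn4, which encodes a claudin of epithelial tight junctions, had higher values on DDC at 8 of 9 tested regions in controls and at 7 of 9 in deleted mice. It spans chromosome 5, 134945123 to 134946934, on the minus strand, with 15 regions in all. A region 12085 bp upstream (134959019 to 134959656) stood at percentiles 38.8 and 30.6 in control standard libraries 2 and 3 and had no listed peak in library 1. It stood at 36.1 and 24.9 in deleted standard libraries 2 and 3, again with none in library 1. On DDC it stood at 80.0, 74.5 and 80.2 in controls and at 63.8, 75.3 and 74.1 in deleted mice. The diets did not overlap in either genotype. The region rose by 1.52 ± 0.26 in controls and by 1.28 ± 0.26 in deleted mice (limma, adjusted p = 0.000964 and 0.0076). The call in deleted mice was lost without deleted standard libraries 1 and 3 (1.02, adjusted p = 0.183) and with the number of strong peaks as a covariate (0.94, adjusted p = 0.317), both by limma. With the strongest 70000 peaks the control difference was 1.01 and the difference in deleted mice 0.73, both called.

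A second upstream Cldn4 region, 4183 bp from the gene (134951117 to 134952104), is described after its values were seen. It stood at 38.6 and 53.9 in control standard libraries 1 and 3, with none in library 2, and at 88.0, 66.8 and 50.3 in control DDC libraries. In deleted mice it stood at 36.2, 23.5 and 24.9 on the standard diet and at 61.9, 70.2 and 69.4 on DDC. The control groups overlapped and the deleted groups did not. The differences of 1.01 ± 0.32 in both genotypes were not called (limma, adjusted p = 0.0594 and 0.0914). The region inside Cldn4 (134945575 to 134945913) differed by 0.62 ± 0.29 and 0.35 ± 0.29, also not called (limma, adjusted p = 0.219 and 0.557). The strongest Cldn4 region, 11901 bp downstream within Mettl27, stayed between percentiles 86.3 and 93.2 in the 12 libraries.

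Prom1 encodes prominin 1 (CD133), a membrane glycoprotein used as a progenitor marker. It spans chromosome 5, 43993621 to 44102047, on the minus strand, and 16 of its 26 regions were tested. Its strongest region, inside the gene (44030749 to 44031550), ranged from percentile 95.0 to 99.6. The region at the first listed start (44100406 to 44101923) ranged from 47.1 to 64.2 in the 12 libraries, with diet differences of −0.05 ± 0.24 and 0.02 ± 0.24 (limma, adjusted p = 0.934 and 0.993). These regions thus held a kept peak in every library, and the called differences lay outside the gene. In the complete lists, whose lengths differ, the window printed above was covered in 8 of 12 libraries. Covered were 0 of 3 control standard and 3 of 3 control DDC libraries, and also part of the deleted standard libraries. This difference was not tested.

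Upstream of Prom1, 2 regions were kept mainly on DDC. The region 16007 bp upstream (44118054 to 44118354) was kept in control standard library 1 alone, at percentile 26.2, and in no deleted standard library. On DDC it stood at 89.7, 87.6 and 54.5 in controls and at 60.4, 74.2 and 76.4 in deleted mice, so that it went from at most 1 of 3 lists to 3 of 3. The complete lists added weak peaks in control standard library 2 and deleted standard library 1, with fold enrichments of 2.11 and 2.45. The lowest fold enrichment kept in deleted standard library 1 was also 2.45, so its peak lay at the cutoff, where position decided between ties. The region rose in controls by 1.78 ± 0.31 (limma, adjusted p = 0.00147). That size rests in part on the lowest value of the scale, which control standard libraries 2 and 3 took. In deleted mice the fitted value was 1.59 ± 0.31 (limma, adjusted p = 0.00712), which has no true size because the region was absent from all 3 kept standard-diet lists. That call was lost without deleted standard libraries 1 and 3 (adjusted p = 0.124), with strong peaks as a covariate (0.202), with the strongest 70000 peaks (0.171) and under the 50% overlap (0.0667), all by limma. In controls the call held in all 22 alternatives, with 1.03 for the strongest 70000 peaks.

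A smaller region 7142 bp upstream of Prom1 (44109189 to 44109450) was kept at percentile 41.6 in control standard library 1 and in no other standard-diet library, also not in the complete lists. It stood at 45.5, 57.7 and 55.2 in control DDC and at 58.3, 37.9 and 55.3 in deleted DDC libraries. Against absence from 3 of 3 lists, the fitted value in deleted mice was 0.95 ± 0.26 (limma, adjusted p = 0.0482), and in controls it was 0.77 ± 0.26 (adjusted p = 0.0797). The call in deleted mice was lost in 18 of 22 alternatives, among them the omission of any 1 deleted standard or deleted DDC library (limma, adjusted p = 0.0565 to 0.144).

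Downstream of Prom1 by 4282 bp, a region (43988940 to 43989339) was kept in 1 of 3 libraries of each standard-diet group, at percentiles 47.0 and 36.3. It stood at 54.8, 64.3 and 66.7 in control DDC and at 40.0, 52.6 and 41.9 in deleted DDC libraries. It rose in controls by 1.00 ± 0.28 (limma, adjusted p = 0.0342), and the difference in deleted mice was 0.58 ± 0.28 (adjusted p = 0.295). Both sizes rest in part on the lowest value of the scale, taken by the standard-diet libraries without a kept peak. The control call was lost in 9 of 22 alternatives. Among them were the omission of control standard library 2 or 3 or of any 1 control DDC library (0.86 to 1.12, limma adjusted p = 0.0502 to 0.14). The value was 0.39 with the strongest 70000 peaks and 1.72 with all deposited peaks.

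**Figure D3:**
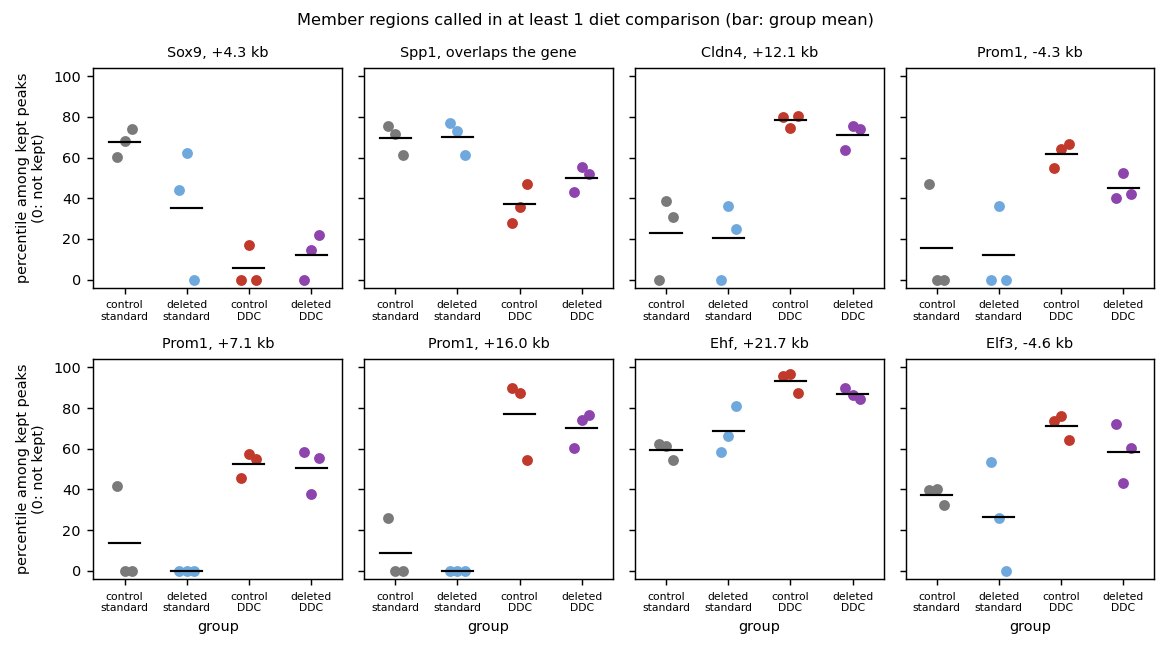
Percentile of the peak among the kept peaks of its library (y axis, 0 where no peak was kept) for the 8 regions called in at least 1 diet comparison, by group (x axis). Each point is 1 mouse and each bar a group mean of 3 mice; the points at Cldn4, at Prom1 +16.0 kb and at Ehf are higher on DDC in both genotypes, and those at Sox9 and in Spp1 are lower in the control DDC group than in the control standard group.

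Spp1 encodes osteopontin, a phosphoprotein secreted by duct cells and other cells of injured liver. It spans chromosome 5, 104435111 to 104441053, on the plus strand, and 10 of its 15 regions were tested. The strongest, 5046 bp downstream (104446099 to 104446691), ranged from percentile 94.7 to 99.0 in the 12 libraries. At the first listed start, whose window is printed above, a region (104434925 to 104435413) was kept in 1 of 3 libraries of each standard-diet group, in 3 of 3 control DDC and in 2 of 3 deleted DDC libraries. Its percentiles ran from 6.2 to 56.6, and the differences were 0.22 ± 0.30 and −0.11 ± 0.30 (limma, adjusted p = 0.742 and 0.89).

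The region inside Spp1 that holds its second listed start (104436149 to 104437268) was lower on DDC in controls. It stood at percentiles 75.6, 71.4 and 61.1 in control standard and 77.0, 72.9 and 61.1 in deleted standard libraries. On DDC it stood at 28.0, 35.8 and 47.1 in controls and at 43.0, 55.2 and 51.9 in deleted mice, with no overlap between diets in either genotype. The difference was −0.93 ± 0.24 in controls (limma, adjusted p = 0.0245, called), and the difference in deleted mice was −0.68 ± 0.24 (adjusted p = 0.147). The control call was lost in 8 of 21 alternatives. Among them were the omission of control standard library 1 or 2 or control DDC library 1 or 2 (−0.81 to −0.91, limma adjusted p = 0.0784 to 0.104). It was also lost with all deposited peaks (−0.57, limma adjusted p = 0.261).

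**Figure D4:**
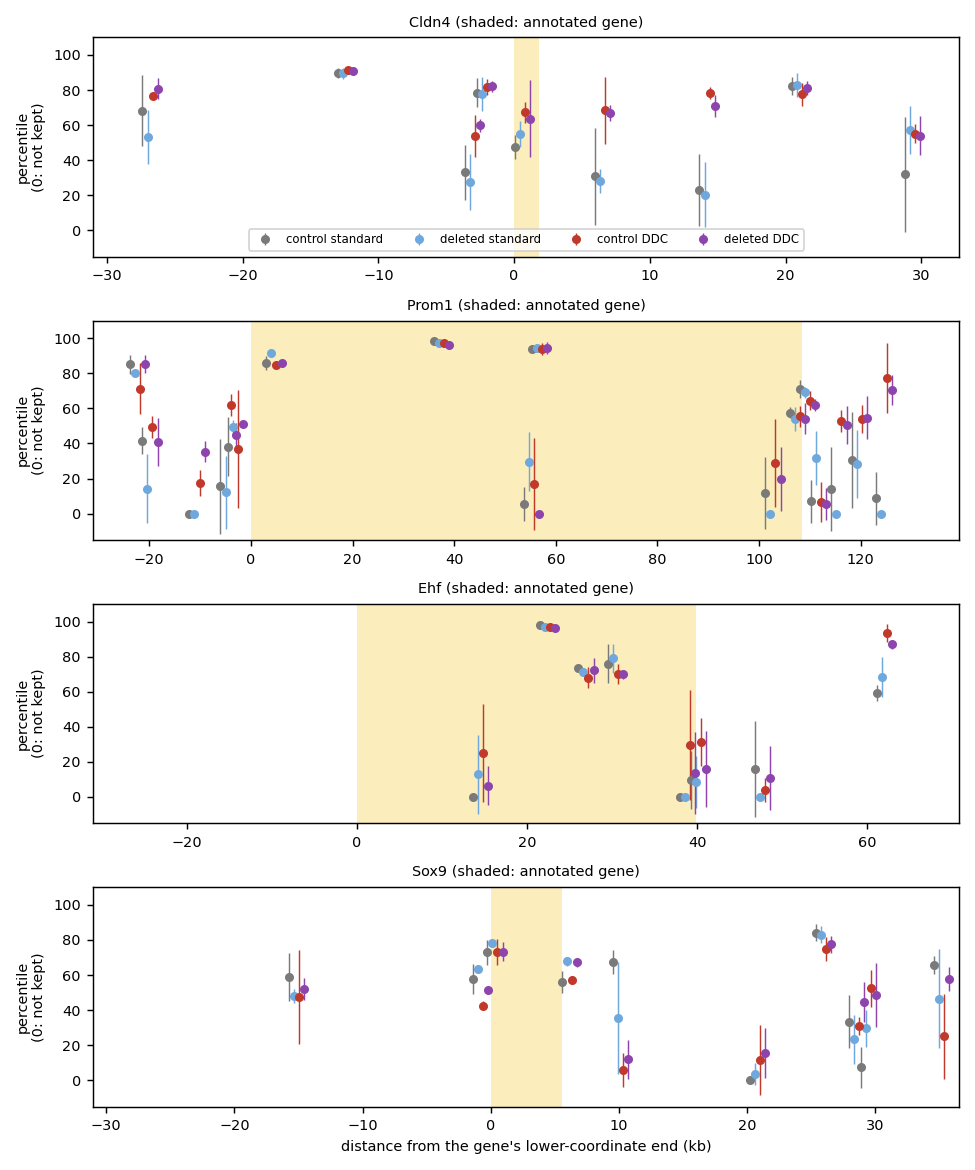
Mean percentile of each tested region (y axis, 0 where no peak was kept; bars are the SD of 3 mice) against its distance in kb from the lower-coordinate end of Cldn4, Prom1, Ehf and Sox9 (x axis; the annotated gene is shaded). Points of the 4 groups are set side by side at each region; the groups separate by diet upstream of Cldn4 and Prom1, to the right of the shaded gene, and at the rightmost Ehf region.

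No region of the 9 genes passed the test between the genotypes. On the standard diet limma called 0 of 74 member regions (background 0.000722%, 1 of 138538), and on DDC it also called 0 (background 0.0%). At an unadjusted p under 0.05 there were 6 members on the standard diet (8.11%, against 8.09% of all regions) and 4 on DDC (5.41%, against 5.94%). The lowest adjusted p were 0.275, at a region 29741 bp from Spp1, and 0.711. The 30 kb window ended close to this Spp1 region and to a Sox9 region at 29318 bp, whose control diet differences were −0.50 ± 0.29 and −0.98 ± 0.30. Just outside, regions at 30991 bp from Spp1 and 30669 bp from Sox9 differed by −0.62 ± 0.24 and 0.47 ± 0.26.

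The test of whether the diet effect differed between genotypes also called 0 members, with a background of 0.0%, and gave 7 at an unadjusted p under 0.05 (limma, 9.46% against 5.87% of all regions). The largest of these was at the Sox9 region 29318 bp away (112817075 to 112817704), described after its values were seen. It stood at 69.7, 59.9 and 66.9 in control standard and at 48.0 and 26.8 in control DDC libraries 1 and 2, with none in library 3. In deleted mice it stood at 58.3, 67.0 and 14.2 on the standard diet and at 49.9, 61.4 and 61.8 on DDC. The difference of the diet effects was 1.17 ± 0.43 (limma, adjusted p = 0.847). A call in controls and none in deleted mice is therefore not shown to be a difference between the genotypes at any member region.

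Around 34 further genes of the biliary programme, 381 regions were tested, and the shares called lay below those of all tested regions. In controls 15 rose (3.94%, against 4.66% of all) and 7 fell (1.84%, against 2.36%), with a median of −0.01. In deleted mice 4 rose (1.05%, against 2.43%) and 2 fell (0.525%, against 0.743%), with a median of −0.01. Inside Cdh1, the gene of E-cadherin, a region (chromosome 8, 106655942 to 106656398) was kept in 0 of 3 control standard and 3 of 3 control DDC lists, and the call was also made in deleted mice, where 2 of 3 standard-diet lists held it (1.19 ± 0.25; limma, adjusted p = 0.00999). Another region inside Cdh1 (106605440 to 106606052) was lower in deleted mice, by −0.59 ± 0.15 (limma, adjusted p = 0.0357). A region near Sctr, the secretin receptor of cholangiocytes, rose by 1.02 ± 0.16, and 1 near the adhesion receptor gene Cd44 by 1.36 ± 0.25 (limma, adjusted p = 0.000686 and 0.00198, controls). Lower were a region in Krt8, a keratin of hepatocytes and duct cells alike (−1.37 ± 0.23 in controls and −1.48 ± 0.23 in deleted mice; limma, adjusted p = 0.00087 and 0.000985), and 1 near Anxa3 (−1.56 ± 0.22, adjusted p = 0.000142, controls).

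Of 430 regions around 22 genes of the Notch, Hippo, TGF-beta and growth factor pathways that act upstream of biliary fate, 26 rose (6.05%, against 4.66% of all) and 11 fell (2.56%, against 2.36%) in controls, with a median of 0.0. In deleted mice 17 rose (3.95%, against 2.43%) and 2 fell (0.465%, against 0.743%), with a median of 0.03. In controls, regions near Wwtr1, which encodes the Hippo effector TAZ (1.66 ± 0.20), and Tgfbr2, a TGF-beta receptor gene (1.62 ± 0.23), rose (limma, adjusted p = 4.79e-05 and 0.000166). A second region near Wwtr1 (chromosome 3, 57435136 to 57435844) was lower in controls, by −0.66 ± 0.16 (limma, adjusted p = 0.0133). A region near Egfr, the receptor gene of epidermal growth factor, was listed in 2 of 3 standard-diet and 3 of 3 DDC lists in controls (1.63 ± 0.24) and in 0 of 3 and 3 of 3 in deleted mice (limma, adjusted p = 0.000267 and 0.000914). In deleted mice a region near the Notch target Hes1 rose by 1.64 ± 0.28, and 1 near the YAP target Ankrd1 was listed in 0 of 3 and 3 of 3 lists (limma, adjusted p = 0.00246 and 0.00395). Inside Klf6, a zinc-finger factor gene, a region (chromosome 13, 5860700 to 5861920) differed by −0.75 ± 0.18 in controls and −1.09 ± 0.18 in deleted mice (limma, adjusted p = 0.0157 and 0.00204). No region of either list was called in the genotype comparisons or in the difference of the diet effects (limma, 0 called).

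Every library held peaks at the hepatocyte markers, and also at markers of other liver cells, as follows without a test. All 10 hepatocyte markers (such as Alb, Ttr and Hnf4a) had a kept peak within 1 kb in every library. Their summed fold enrichment ranged from 288.1 to 429.4 in control standard, 300.6 to 342.8 in deleted standard, 225.1 to 268.6 in control DDC and 205.4 to 295.4 in deleted DDC libraries. The hepatocyte sums were thus lower on DDC, with no overlap between diets in either genotype. Of the 9 biliary genes, 7 to 8 had a kept peak within 1 kb in each library, with sums of 186.3 to 212.3, 173.5 to 205.7, 211.2 to 242.1 and 197.3 to 204.3 in the same order. These sums overlapped between diets in both genotypes. Krt19 had a kept peak in 0 of the 12 libraries and Krt7 in 7, while each of the other biliary genes, Epcam among them, had one in all 12. The sums for 7 stellate cell markers were 125.3 to 144.4, 97.9 to 138.8, 186.6 to 213.4 and 162.1 to 174.5, with no overlap between diets in either genotype. For 8 macrophage and myeloid markers they were 101.9 to 107.5, 76.1 to 106.0, 131.8 to 182.9 and 105.5 to 141.4, and for 6 endothelial markers 223.7 to 254.8, 182.0 to 233.0, 237.4 to 282.4 and 229.6 to 249.8. The diets did not overlap for the macrophage sums in controls, and they overlapped in deleted mice and, for the endothelial sums, in both genotypes. For 6 lymphocyte markers the sums were 47.5 to 64.9, 34.5 to 53.8, 36.9 to 43.5 and 39.6 to 44.0. They were lower on DDC without overlap in controls, and overlapped in deleted mice. Cd4 and Cd79a had a kept peak in 12 libraries, Cd3e in 5, and Cd8a and Nkg7 in 0. All these sums use the deposited fold enrichment of the kept peaks and not the common scale. The lowest kept fold enrichment differed by diet, from 1.38 to 2.47 in standard-diet and from 2.53 to 2.84 in DDC libraries. Its part in the sums was not tested. The part of these other cells in the differences at the biliary genes was not tested either.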

How the data were processed

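ATAC-seq, which inserts adapters into accessible DNA with a transposase, was run on hepatocyte preparations of 12 mice. Per the submitters' processing notes the tools were MACS2, Bowtie2, fastp, deepTools, Picard, bedtools and SAMtools, without versions, and the build was mm10; the sources used here give neither their settings nor any transposase shift. The authors deposited 1 peak list per library, not pooled. In the deposited lists the fold enrichment is a ratio of peak height to background within the library, the −log10 p and −log10 q are the caller's, and the deposited score was not used. The lists hold no counts, so read depth is unknown.

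Autosomal, X and Y peaks entered, and several summits of a peak were merged. The strongest 137034 per library by fold enrichment were kept, with ties ordered by −log10 p and then by position. Kept peaks were joined where they overlapped by at least 1 bp. Ranks were mapped to the mean log2 fold enrichment of the libraries, so a shift shared by the whole genome leaves no trace. Regions kept in at least 3 libraries were tested with limma 3.58.1 (R 4.3.3, eBayes with trend and robust settings) on 4 group means. The tests were two-sided, with Benjamini-Hochberg adjustment over all 138538 tested regions. The procedure was tried on simulated data in which changed regions were shifted by a constant. No value was set there to the lowest of the scale, so the trial does not bear on regions absent from some lists. Python 3.11.15, numpy 2.4.6, pandas 2.3.3 and matplotlib 3.10.9 were used. P-values rest on the spread between mice within groups, pooled over the 4 groups and moderated by limma across all tested regions. Gene spans came from a RefSeq table of GRCm38.p6 without strand or exons, so exonic and intronic positions are not given; strand came from the RefSeq promoter table. No genome sequence was used, so no peak sequence is shown.

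Members and gene lists were chosen with earlier results of these data known. Regions named by coordinates were those called, the strongest of each gene, those at a listed start or gene end, and, without a call, that with the smallest diet p. The regions inside Epcam and Cldn4 and those so marked in the text were added after their values were seen. From the other gene lists, up to 3 called regions per direction with the smallest adjusted p were taken, and not all of these are given above. Results for 1 named region and 1 marker gene are not reported here. Peaks at Fbxl5 were not used to check the deletion, because the sources used here do not give the part removed.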

Additional observations from a re-analysis of the deposited data

How the results depend on the processing

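The 7 calls in controls became 4 within 10 kb of the genes (36 regions), 12 with all deposited peaks and 4 with no filter on regions; leaving out 1 library gave 4 to 8, the lowest without control standard library 2 or control DDC library 2. The 3 calls in deleted mice became 1 within 10 kb, 1 with the strongest 70000 peaks, 5 when ranked by −log10 p, 0 with the number of strong peaks as a covariate and 0 without deleted standard libraries 1 and 3; leaving out 1 library gave 2 to 4. Genotype comparisons and the difference of diet effects stayed at 0 in every alternative run. Of the 10 called differences, tried under 219 alternatives, 170 kept the call, 49 lost it and 0 turned sign. Those of Ehf, Cldn4, Prom1 (16007 bp upstream) and Sox9 in controls held in all 22. Of 13 uncalled differences, 25 of 277 alternatives gave a call, and the Krt19 region in deleted mice turned to −0.002 with all deposited peaks and −0.003 with the covariate; the cause was not tested. Replicate numbers did not pair the mice (correlations of same-numbered deviations −0.024 to 0.056). With the replicate number as a block, 7 regions were called in controls and 2 in deleted mice, the Prom1 region 7142 bp upstream being lost (0.95, limma adjusted p = 0.0592). Weak peaks near the lowest kept value, 1.27, limit what can be seen at regions absent from some lists.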

Other observations

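Of the 74 tested regions around the biliary genes, 5 were kept in DDC libraries alone (6.76%) and 0 in standard-diet libraries alone, where 6.33% and 2.95% of all tested regions were so. The first share is thus close to that of all regions. They lay inside Krt7 (3 DDC libraries), inside Ehf (3), 7393 bp upstream of Elf3 within Rnpep (4), upstream of Epcam (5) and 10297 bp downstream of Prom1 (6). The Prom1 region (chromosome 5, 43982674 to 43983324) stood at percentiles 9.7, 24.2 and 19.1 in control DDC and 30.7, 33.5 and 41.9 in deleted DDC libraries, and no complete standard-diet list held it. The Elf3 region (chromosome 1, 135265865 to 135266297) stood at 62.7 and 64.5 in control DDC libraries 1 and 2 and at 48.0 and 19.9 in deleted DDC libraries 2 and 3, and was likewise in no complete standard-diet list. Neither was called in either genotype (limma, adjusted p = 0.337 and 0.0715 at Prom1, and 0.0788 and 0.524 at Elf3). Of the 66 untested regions, 33 were kept on DDC alone, 32 on the standard diet alone and 1 on both. These regions were picked after their values were seen.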
